A study of Mus musculus with 6 samples.

Results

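The 36 genes described here encode the machinery of macroautophagy and were chosen by function, from kinases that start the process to proteins of the lysosomal membrane. A gene was measured where a probeset of the array carried its symbol alone. This held for 35 of the 36, which are 35 of the 14994 genes tested, and all 35 passed the filter on dim probesets. Optn, a cargo receptor, is not analysed here. The samples were KSL SLAM cells, a marrow fraction enriched for haematopoietic stem cells and sorted for c-Kit, Sca-1 and CD150 and against lineage markers, CD41 and CD48. They came from mice given G-CSF, the cytokine that drives granulocyte production (125 mcg/kg under the skin, 2 doses per day), for 7 days, against mice given PBS for 7 days. Each treatment had 3 MoGene 1.0 ST arrays, 1 for each of 3 independent groups of mice, with cells pooled from 5 to 10 mice. The labels give no strain, genotype or age of the mice.

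Macroautophagy encloses cytoplasm in a double membrane, the autophagosome, and delivers it to the lysosome for breakdown. The ULK kinase complex starts it, a class III phosphatidylinositol 3-kinase marks the membrane, ubiquitin-like conjugation attaches ATG8 proteins to it, and cargo receptors tie the load to those ATG8 proteins. In mice, blood-forming stem cells that lack Atg7 or Rb1cc1 are known to be poorly maintained, and Foxo3 is known to sustain the expression of autophagy genes in these cells. Transcript levels do not measure autophagic flux.

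The arrays had median intensities of 56.2 to 61.7, and any 2 arrays of the same treatment correlated at a Spearman's rho of 0.861 to 0.895 across genes (0.836 to 0.892 for arrays of different treatments). Of 14 stem cell markers tested, 12 had negative differences (G-CSF minus PBS), with a median of -0.26. At an unadjusted p under 0.05 in limma 2 were lower and 0 higher (14.3%, against 6.04% of all genes). Slamf1, the gene of CD150, differed by -0.20 (SE 0.20) and its groups overlapped. Itga2b, the gene of CD41, differed by -0.16 (SE 0.15) and its groups overlapped too. Kit, the receptor of the c-Kit gate, was at 9.28, 9.21 and 8.63 with G-CSF against 10.28, 9.92 and 9.85 with PBS (log2 intensity). Kit was not in the marker lists, and 5.05% of all genes were lower on every G-CSF array. Transcripts of neutrophils, which the lineage gate should remove, had positive differences in 21 of 22 markers tested, with a summed intensity of 34422 to 44035 on G-CSF arrays and 10827 to 19129 on PBS arrays. Of 14 granulocyte-monocyte progenitor markers 13 had positive differences (summed intensity 2967 to 6910 with G-CSF, 1138 to 1580 with PBS), and of 11 monocyte, macrophage and dendritic cell markers 9 had (2236 to 2897 with G-CSF, 1200 to 1964 with PBS). All 10 megakaryocyte and platelet markers tested had negative ones (633 to 686 with G-CSF, 950 to 1123 with PBS). Over all genes 50.3% of differences were positive and 49.7% negative. At an unadjusted p under 0.05 in limma, 21 neutrophil, 10 progenitor and 4 monocyte-group markers were higher (2.73% of all genes were). On the same criterion 4 platelet markers were lower (3.3% of all genes were). In these lists 0 markers passed an adjusted p under 0.05 (smallest 0.112). No marker is at 0 in intensity data, and the neutrophil surface marker Ly6g differed by -0.19 (SE 0.48). The part of these cells in the differences below was not tested, apart from the values set beside them. In sorted bulk RNA, fewer cells of a type and less RNA per cell cannot be told apart.

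No autophagy gene passed the test for a difference between G-CSF and PBS. In the limma fit over all genes 0 of the 35 passed an adjusted p under 0.05 (smallest 0.523), where 0.0267% of all genes tested passed with higher values and 0% with lower values. At an unadjusted p under 0.05 there were 2 of 35 members, 5.71% against 6.04% of all genes. Lamp2 was the 1 higher member (2.73% of all genes were higher) and Atg14 the 1 lower member (3.3% of all genes were lower). The median difference, G-CSF minus PBS, was -0.05 on the log2 scale, against 0.002 over all genes, with 13 positive and 22 negative members (50.3% and 49.7% of all genes were positive and negative). The mean log2 intensity of the 35 genes was 6.73, 6.94 and 6.75 on the G-CSF arrays and 6.82, 6.68 and 6.98 on the PBS arrays, so the groups overlapped. Groups failed to overlap in 5 members, 14.3% against 10.8% of all genes. Gabarap, Lamp2 and Atg9a were higher on every G-CSF array (5.77% of all genes were) and Atg14 and Ulk1 lower on every one (5.05% of all genes were). After quantile normalization again 4 members were without overlap (11.4%, against 11% of all genes), and Gabarap was not among them.

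**Figure D1:**
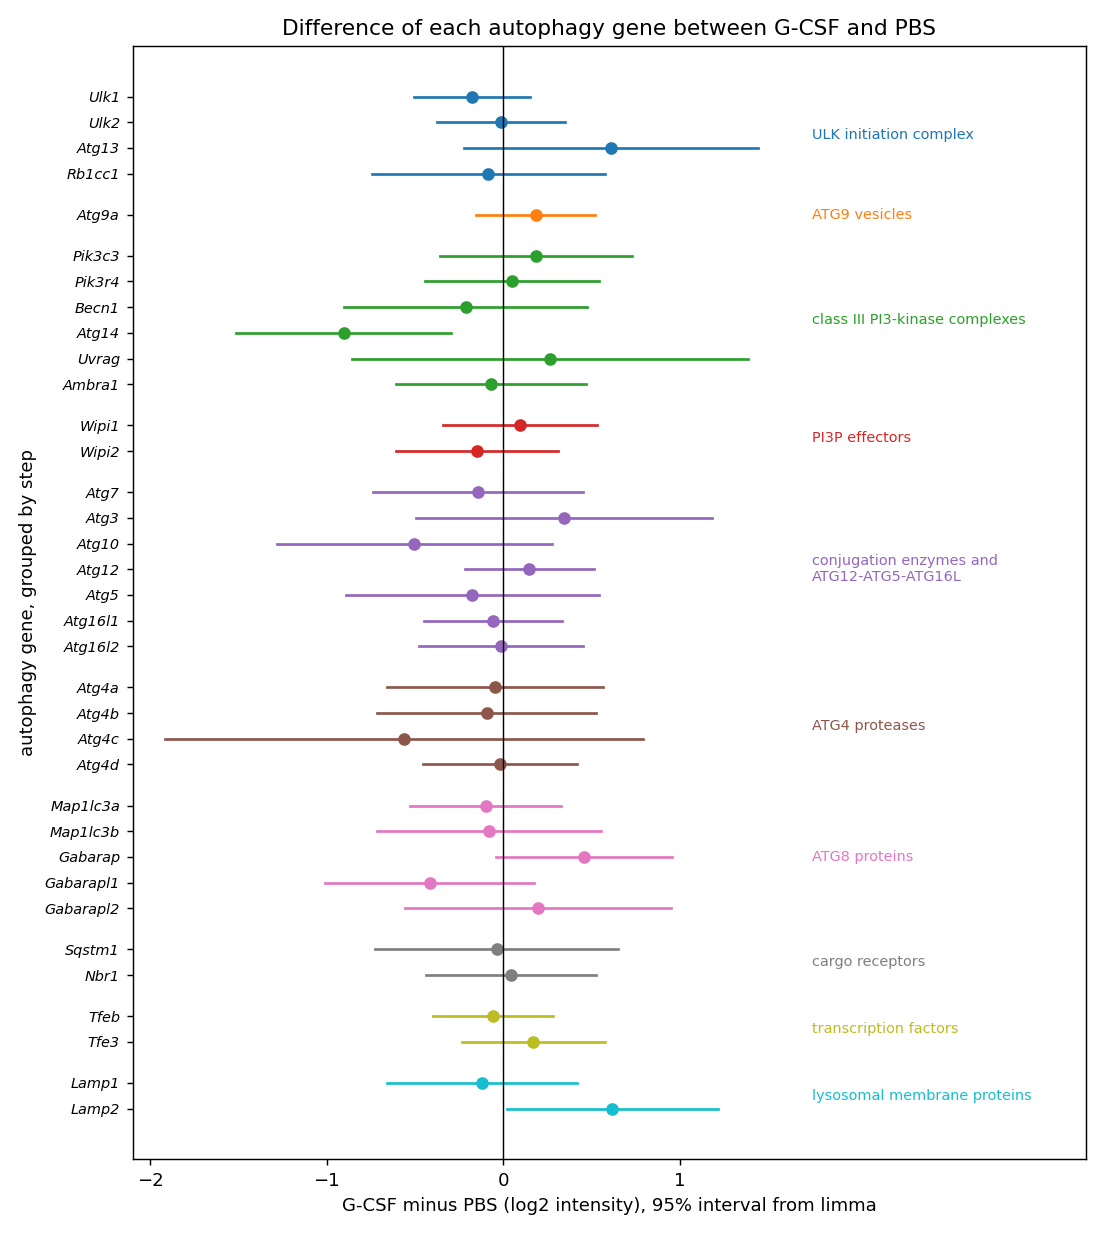
Difference of each of the 35 autophagy genes (G-CSF minus PBS, log2 intensity; point) with limma's 95% interval (line), grouped and coloured by step, with 3 arrays per group. Only the intervals of Atg14, on the negative side, and Lamp2, on the positive side, leave out 0, and these intervals are not adjusted for the number of genes.

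The intervals also set a limit on what could have been missed. For 27 of the 35 genes the 95% interval of the difference lay inside -1 to 1 on the log2 scale, a change of under 2-fold either way, and 78.7% of all genes tested had such an interval (77.1% of the members). The 8 genes whose interval reached beyond 2-fold were Atg13, Atg14, Uvrag, Atg3, Atg10, Atg4c, Gabarapl1 and Lamp2. A tighter limit of 0.5 held for 5 of the 35 (14.3%, against 21.5% of all genes), so in most members 3 arrays per group could not tell a moderate shift from none.

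**Figure D2:**
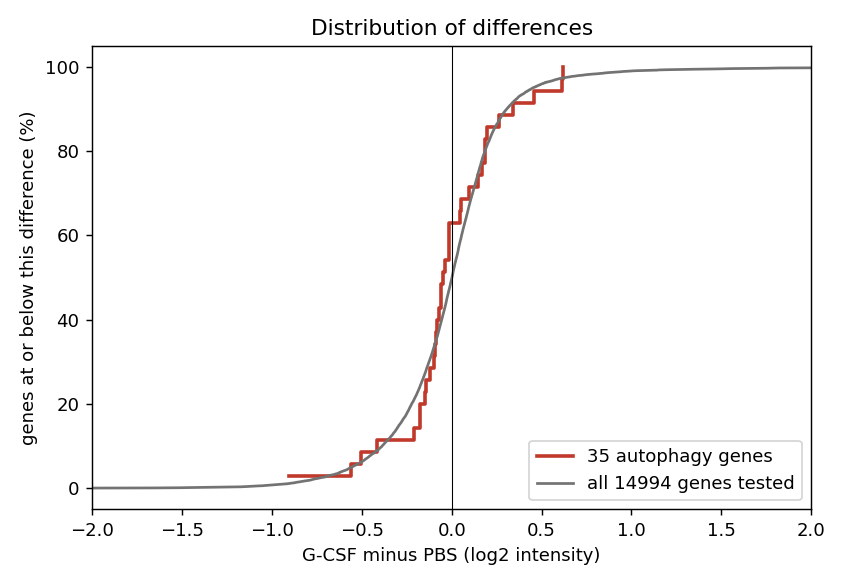
Cumulative share (%) of the 35 autophagy genes (red) and of all 14994 genes tested (grey) at or below a given difference (G-CSF minus PBS, log2 intensity). The curves run close together, with medians of -0.05 for the autophagy genes and 0.002 for all genes, and the autophagy genes end at -0.90 and 0.62.

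The ULK complex, which starts autophagosome formation when nutrients fall, had a median difference of -0.05 over its 4 genes. Ulk1, the kinase itself, was at 6.55, 6.66 and 6.53 with G-CSF and at 6.79, 6.73 and 6.74 with PBS. All G-CSF arrays were the lower ones, but by little (-0.18, SE 0.14, limma adjusted p = 0.963). Its paralogue Ulk2 differed by -0.01 (SE 0.15). Rb1cc1, the scaffold also called FIP200, differed by -0.09 (SE 0.28). Atg13, the adaptor that joins the kinase to the scaffold, was at 7.29, 8.05 and 6.67 with G-CSF and at 7.08, 6.46 and 6.62 with PBS. One G-CSF array, replicate 2, lay far above the rest and the groups overlapped (0.61, SE 0.35, limma adjusted p = 0.932, and 0.26 without that array). Atg9a, the membrane protein of the vesicles that seed the autophagosome, was at 6.87, 6.72 and 6.89 with G-CSF and at 6.68, 6.58 and 6.66 with PBS. Its G-CSF arrays were all the higher ones, by 0.18 (SE 0.14, limma adjusted p = 0.963).

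The class III phosphatidylinositol 3-kinase complexes held the member with the largest difference. Atg14, the subunit that directs the kinase to the site where autophagosomes form, was at 6.32, 6.14 and 6.23 with G-CSF and at 6.68, 7.05 and 7.68 with PBS. The G-CSF arrays were close together and all below the PBS arrays, which were spread over a full log2 unit with replicate 3 highest. The difference was -0.90 (SE 0.26, 95% interval -1.51 to -0.29, 1.87-fold lower), with an unadjusted p = 0.00976 in limma that did not pass after adjustment (adjusted p = 0.523). Without PBS replicate 3 it was -0.63 (limma adjusted p = 0.811). The other 5 genes of these complexes had smaller differences, and the groups overlapped in each. Uvrag, which takes the place of Atg14 in the kinase complex that acts on endosomes, was at 7.58, 7.33 and 7.61 with G-CSF and at 7.86, 6.03 and 7.84 with PBS. A single low array, PBS replicate 2, gave it the positive difference (0.26, SE 0.48), and without that array the difference was -0.34. Becn1, the common scaffold of both complexes, was at 7.18, 7.42 and 6.29 with G-CSF and at 7.27, 7.18 and 7.07 with PBS. There G-CSF replicate 3 was the low array (-0.21, SE 0.29), and without it the difference was 0.13. The catalytic subunit Pik3c3 (0.19, SE 0.23), its regulatory partner Pik3r4 (0.05, SE 0.21) and the Becn1-binding protein Ambra1 (-0.07, SE 0.23) had differences within their errors.

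Wipi1 and Wipi2 read the phosphatidylinositol 3-phosphate made by that kinase and recruit the conjugation machinery. They were dim, at means of 5.63 and 5.63 with G-CSF and 5.54 and 5.78 with PBS, and differed by 0.09 (SE 0.19) and -0.15 (SE 0.20).

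Conjugation of ATG12 to ATG5, and of ATG8 proteins to lipid, rests on an E1-like enzyme (Atg7), E2-like enzymes (Atg3 and Atg10) and the ATG12-ATG5-ATG16L complex. The 7 genes had a median difference of -0.06, 0 of them without overlap. Atg7 was at 7.38, 6.89 and 7.10 with G-CSF and at 7.26, 7.71 and 6.84 with PBS (-0.14, SE 0.25). Atg5 was at 5.46, 6.18 and 5.61 with G-CSF and at 5.69, 5.57 and 6.51 with PBS (-0.18, SE 0.31). In both the groups were mixed, and the PBS arrays reached the highest value. Atg12 (0.15, SE 0.16), Atg16l1 (-0.06, SE 0.17) and Atg16l2 (-0.01, SE 0.20) stayed within their errors. The E2-like enzymes were the least settled of the group. Atg10 differed by -0.50 (SE 0.33), with PBS arrays from 5.66 to 6.97, and Atg3 by 0.34 (SE 0.36), with PBS arrays from 7.28 to 8.64. Leaving out PBS replicate 2 moved Atg10 to -0.87, at an unadjusted p = 0.0084 and an adjusted p = 0.66 in limma, and leaving out PBS replicate 3 moved it to -0.22. Atg3 was at 0.03 without PBS replicate 1 and at 0.71 without PBS replicate 3.

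The ATG4 proteases trim ATG8 proteins before lipidation and release them from the membrane later. All 4 had negative differences, of -0.05 (Atg4a, SE 0.26), -0.09 (Atg4b, SE 0.26), -0.56 (Atg4c, SE 0.58) and -0.02 (Atg4d, SE 0.19), each within its own error. Atg4c was the most variable member of all 35, at 5.04, 6.06 and 4.99 with G-CSF and at 6.07, 4.70 and 7.00 with PBS. It was dim, with the values 5.04, 4.99 and 4.70 under the filter's limit of 5.152. Atg4b was also dim, at means of 5.46 with G-CSF and 5.55 with PBS. The Atg4c difference was -1.17 without PBS replicate 2 and -0.02 without PBS replicate 3.

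ATG8 proteins are the ubiquitin-like tags of the autophagosome, in an LC3 and a GABARAP subfamily. Their 5 genes had differences in both directions with a median of -0.08. Gabarap was at 9.64, 9.75 and 9.89 with G-CSF and at 9.54, 8.89 and 9.48 with PBS. The G-CSF arrays were all above the PBS arrays, and the difference of 0.46 (SE 0.21, 95% interval -0.04 to 0.96) did not pass (limma adjusted p = 0.855). It was 0.25 without PBS replicate 2 and 0.58 without PBS replicate 1. Gabarapl1 was at 7.38, 7.93 and 7.65 with G-CSF and at 7.87, 7.79 and 8.55 with PBS. Here the PBS mean was the higher one and the groups overlapped (-0.42, SE 0.25). Map1lc3b, whose product is the common marker of autophagosomes, was at 8.27, 9.31 and 8.85 with G-CSF and at 8.82, 8.76 and 9.09 with PBS. The G-CSF arrays held both its highest and its lowest value (-0.08, SE 0.27), and its second probeset gave -0.03. Map1lc3a differed by -0.10 (SE 0.18) and Gabarapl2 by 0.20 (SE 0.32). The second, dimmer Gabarapl2 probeset gave -0.16, so the sign of that gene depends on the probeset.

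Sqstm1, also called p62, carries ubiquitin-tagged cargo and is itself broken down by autophagy. It was at 6.68, 7.60 and 6.67 with G-CSF and at 6.79, 6.93 and 7.34 with PBS. The highest value was that of G-CSF replicate 2, and the groups overlapped (-0.04, SE 0.29, limma adjusted p = 0.999). Nbr1, a related receptor, differed by 0.05 (SE 0.21).

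**Figure D3:**
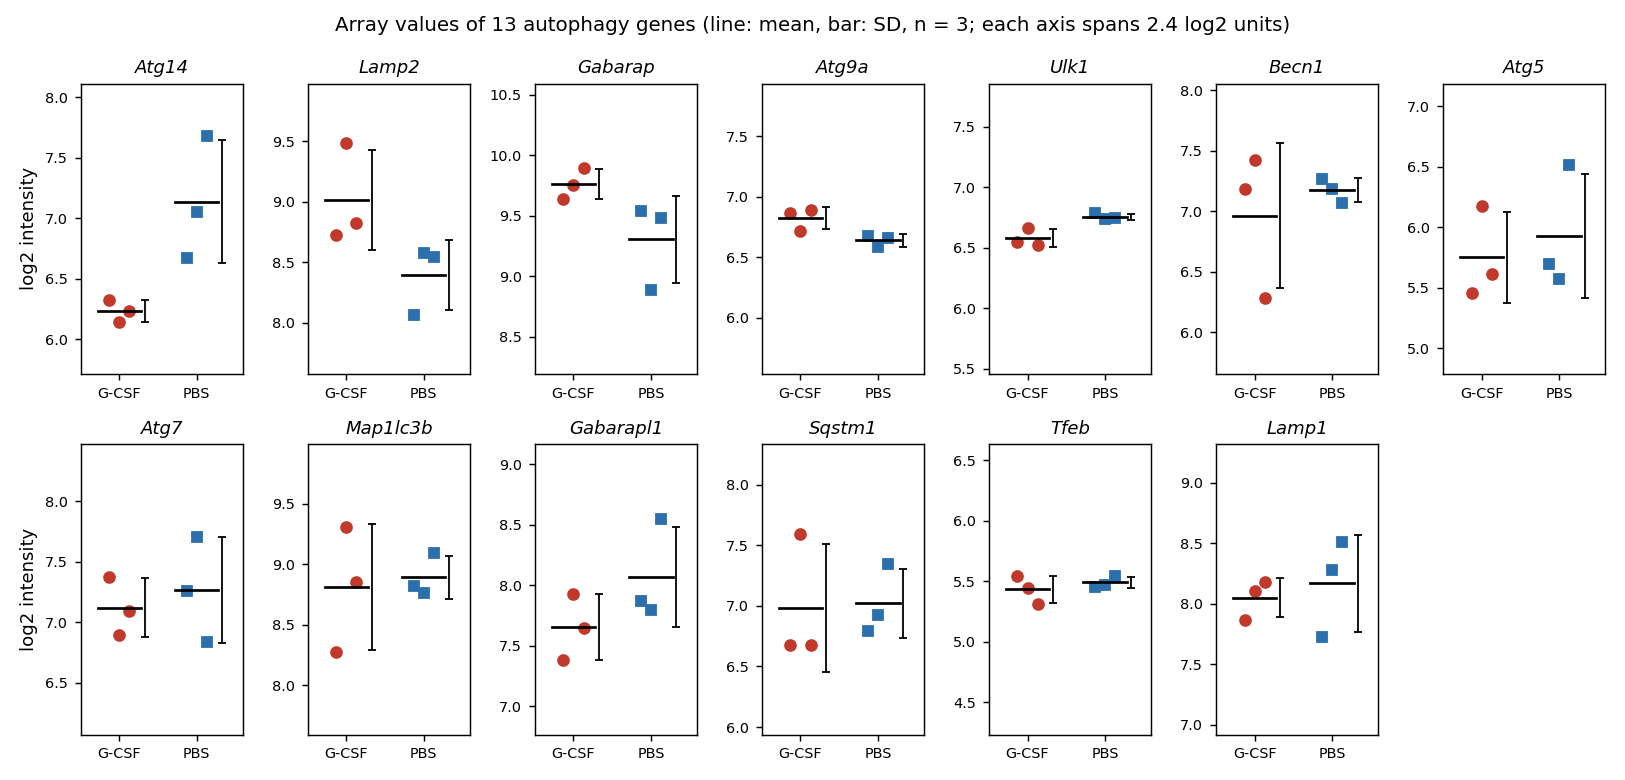
Log2 intensity on each array for 13 autophagy genes, with G-CSF arrays as red circles, PBS arrays as blue squares, horizontal lines for means and vertical bars for SD (n = 3), on axes of equal span. The first 5 panels are the genes whose groups do not overlap, from Atg14 (6.14 to 6.32 with G-CSF, 6.68 to 7.68 with PBS) to Ulk1, and the other 8 overlap.

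Tfeb and Tfe3 are transcription factors that bind E-boxes in the promoters of lysosomal and autophagy genes. Both were near the filter's limit of 5.152, with Tfeb at 5.54, 5.44 and 5.32 with G-CSF and at 5.45, 5.47 and 5.55 with PBS (-0.06, SE 0.15). Tfe3 averaged 5.30 ± 0.07 with G-CSF and 5.13 ± 0.24 with PBS (SD, n = 3 each), the PBS mean under that limit. These factors are controlled largely by where they sit in the cell, which an array does not see. Their core motif is CACGTG, which reads the same on both strands. RefSeq promoter windows (GRCm38.p6, 250 bases before to 50 after the gene start) were at hand for 30 of the 36 genes. The motif was in those of 5 genes, 16.7% against 8.09% of the 27025 genes with a window. The stretches around it are shown, 5′ to 3′ on the strand of the gene with the motif in capitals, because they show which members carry the motif and how often. Those of Lamp1 (chr8:13159085-13159166, plus strand), Atg3 (chr16:45158720-45158778, plus), Atg7 (chr6:114670949-114670984, plus), Atg5 (chr10:44268310-44268345, plus) and Atg14 (chr14:47568415-47568450, minus) read as follows.
Lamp1: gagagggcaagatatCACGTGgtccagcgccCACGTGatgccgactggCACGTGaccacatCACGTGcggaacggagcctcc
Atg3: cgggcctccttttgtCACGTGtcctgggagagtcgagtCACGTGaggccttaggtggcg
Atg7: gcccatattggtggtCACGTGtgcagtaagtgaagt
Atg5: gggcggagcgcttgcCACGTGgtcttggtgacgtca
Atg14: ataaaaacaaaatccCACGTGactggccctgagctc

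Lamp1 carried 4 copies in the 61 bases before its start, a number reached by 8 of all 32851 windows. The 5 genes with the motif did not share a direction. Lamp1 differed by -0.12 (SE 0.23), Atg7 by -0.14, Atg5 by -0.18, Atg14 by -0.90 and Atg3 by 0.34. Lamp2 was not among these 5 genes. A match of letters is a description of the sequence and not of a bound site.

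Lamp1 and Lamp2 are among the most abundant glycoproteins of the lysosomal membrane, and Lamp2 is needed for autophagosomes to mature. Lamp2 was at 8.73, 9.49 and 8.83 with G-CSF and at 8.07, 8.58 and 8.55 with PBS. The groups did not overlap, the G-CSF arrays being higher by 0.62 on average (SE 0.25, 95% interval 0.02 to 1.22, 1.54-fold). The unadjusted p was 0.0445 in limma and the adjusted p 0.804. Centring the arrays on their medians took the unadjusted p over 0.05, as did trend and robust settings, and over all alternatives it ran from 0.0171 to 0.142 in limma. Lamp1 was at 7.87, 8.11 and 8.18 with G-CSF and at 7.73, 8.28 and 8.51 with PBS, with no such separation. G-CSF replicate 2, the highest array for Lamp2, also had the highest mean of the neutrophil markers (9.83, against 9.27 and 9.58 on the other G-CSF arrays). Without that array the Lamp2 difference was 0.38 (limma unadjusted p = 0.132). Leaving out PBS replicate 1 gave 0.45 (limma unadjusted p = 0.142), and leaving out PBS replicate 2 gave 0.71 (limma unadjusted p = 0.0531). The unadjusted p of Lamp2 was under 0.05 in 7 of the 14 alternatives.

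Members of a family were also set against each other within arrays, which removes differences in overall level between arrays. For 11 pairs of paralogues, chosen by family after the values were seen, the log2 ratio of the pair was compared between groups. Lamp2 over Lamp1 was 0.86, 1.38 and 0.65 with G-CSF and 0.34, 0.30 and 0.04 with PBS, a difference of 0.74 (SE 0.24). Gabarapl1 over Gabarap was -2.26, -1.82 and -2.24 with G-CSF and -1.67, -1.10 and -0.93 with PBS, a difference of -0.88 (SE 0.27). In these 2 of the 11 pairs the groups did not overlap. Of all single genes 10.8% did not either, and no such share was computed for ratios of genes. Each pair holds a gene that was without overlap by itself, Lamp2 or Gabarap, so the ratios are not separate results. Both pairs had a two-sided exact permutation p = 0.1, the smallest that 3 against 3 arrays allow (adjusted p = 0.55 over the 11 pairs). The design could not bring the pairs past 0.05. In the other 9 pairs the ratios of the groups overlapped.

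Among the 35 genes the spread within groups was somewhat above that of other genes, with a median pooled SD of 0.31 against 0.26 over all genes tested. It ran from 0.06 for Ulk1 to 0.92 for Atg4c. In 26 members the difference between groups was under 0.25 in size, and in 9 of 35 it exceeded the member's own pooled SD (25.7%, against 30.1% of all genes). The arrays did not contribute evenly. PBS replicate 3 had the highest value of the 6 arrays in 10 members and G-CSF replicate 2 in 9, and PBS replicate 2 the lowest in 10 and G-CSF replicate 3 in 8. Over all genes tested these shares were 18.2% and 18.2% for the highest value and 16.8% and 14.3% for the lowest.

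Genes around the core machinery were read from 7 lists, and 0 of their genes passed an adjusted p under 0.05 in limma. Of 16 other core genes tested, 11 had positive differences and the median was 0.05. At an unadjusted p under 0.05, 0 were higher and 1 was lower, Ei24, a membrane protein of the endoplasmic reticulum that autophagy needs in mice (-1.48, SE 0.54). That is 6.25% of the list against 6.04% of all genes, and the groups of Ei24 overlapped. Tmem41b, a lipid scramblase, differed by 0.91 (SE 0.46), Rubcn, an inhibitor of the Uvrag-containing kinase complex, by 0.27 (SE 0.15) and Atg101, the partner of Atg13, by 0.42 (SE 0.25). Of 14 genes for fusion with the lysosome the median was -0.06 and 0 reached an unadjusted p under 0.05 in either direction. Vps41 (-0.38, SE 0.18) and Vps11 (-0.25, SE 0.15), subunits of the HOPS tether, were lower on every G-CSF array, as 5.05% of all genes were, and the SNAREs Ykt6 and Stx17 differed by -0.75 (SE 0.39) and 0.23 (SE 0.18). The 17 selective receptors and regulators had a median of 0.008, again with 0 at an unadjusted p under 0.05. In that list Phb2 differed by -0.51 (SE 0.23), Ccpg1, a receptor for the endoplasmic reticulum, by 0.59 (SE 0.29), Calcoco1 by -0.25 (SE 0.17), Tex264 by -0.17 (SE 0.14) and the mitophagy receptor Bnip3 by 0.15 (SE 0.21).

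The list for nutrient signalling mixes genes of mTORC1, which holds the ULK complex inactive, with restraints of mTORC1 such as Sesn1. It also has genes of AMPK, which activates the ULK complex. Transcripts of this list had mostly negative differences, which give no direction of signalling. Of its 29 genes tested 21 were negative and 8 positive (49.7% and 50.3% of all genes were), with a median of -0.18. The mean of the list was 6.65, 6.92 and 6.73 on the G-CSF arrays and 6.95 to 7.00 on the PBS arrays, so the groups did not overlap. At an unadjusted p under 0.05 there were 2 lower genes and 0 higher ones (6.90% of the list, against 6.04% of all genes), a share near that of all genes. Groups failed to overlap in 17.2% of the list, against 10.8% of all genes. These were 4 lower genes, Lamtor3, Sesn1 and Rragb among them, and 1 higher gene, Mtor. Lamtor3, a subunit of the Ragulator that anchors mTORC1 to lysosomes, was at 8.20, 7.23 and 7.76 with G-CSF and at 8.57, 9.47 and 9.18 with PBS. All its G-CSF arrays were lower (-1.34, SE 0.32, 2.54-fold lower, limma adjusted p = 0.378). Sesn1, a sestrin that restrains mTORC1, was at 7.25, 8.35 and 8.03 with G-CSF and at 8.58, 8.58 and 8.79 with PBS (-0.78, SE 0.28, limma adjusted p = 0.749). Rragb, a Rag GTPase, differed by -0.48 (SE 0.21). Mtor, the kinase, went the other way without overlap, at 6.56, 6.88 and 6.54 with G-CSF and 6.41, 6.14 and 6.29 with PBS (0.38, SE 0.17, limma adjusted p = 0.851). Marker lists that were also lower on every G-CSF array were those of stem cells, with means of 7.13 to 7.57 with G-CSF and 7.61 to 7.86 with PBS, and of megakaryocytes and platelets (10 of 10 negative), with 5.91 to 6.03 with G-CSF and 6.53 to 6.74 with PBS. Their part in these values was not tested.

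Foxo3 was at 6.80, 7.72 and 7.45 with G-CSF and at 7.76, 8.12 and 7.68 with PBS. Its mean was lower with G-CSF but the groups overlapped (-0.53, SE 0.26, 95% interval -1.15 to 0.09, limma adjusted p = 0.868). Of the 8 transcription factors in its list, Foxo3 included, 6 had negative differences (median -0.13) and 0 an unadjusted p under 0.05. Foxo1 (-0.20, SE 0.17) and Zkscan3 (-0.15, SE 0.26), a repressor of autophagy genes, were on the negative side, while Foxo4 differed by 0.11 (SE 0.20).

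On the lysosomal side, 15 subunits of the vacuolar proton pump, which acidifies the lysosome, had a median of -0.06. At an unadjusted p under 0.05 there was 1 higher gene and 0 lower ones (6.67% of the list, against 6.04% of all genes). Atp6ap1, an accessory subunit, was at 7.94, 7.78 and 7.44 with G-CSF and at 7.34, 7.08 and 7.29 with PBS (0.48, SE 0.18, limma adjusted p = 0.761). Atp6v0a1 (0.85, SE 0.38), Atp6v0b (0.57, SE 0.38) and Atp6v1b2 (-0.47, SE 0.29) overlapped between groups. Of 23 lysosomal hydrolases and membrane proteins 15 had positive differences (median 0.15). The 1 gene at an unadjusted p under 0.05 (4.35% of the list, against 6.04% of all genes) was Ctsd, the protease cathepsin D, at 8.07, 9.31 and 8.37 with G-CSF and at 7.88, 7.47 and 7.71 with PBS (0.90, SE 0.32, limma adjusted p = 0.749). Lipa, the acid lipase, differed by 0.52 (SE 0.27), Asah1 by 0.37 (SE 0.32) and Neu1 by 0.21 (SE 0.18). Ctsd, like Lamp2, was highest on G-CSF replicate 2, which among the G-CSF arrays also had the highest mean over all genes (6.66).

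**Figure D4:**
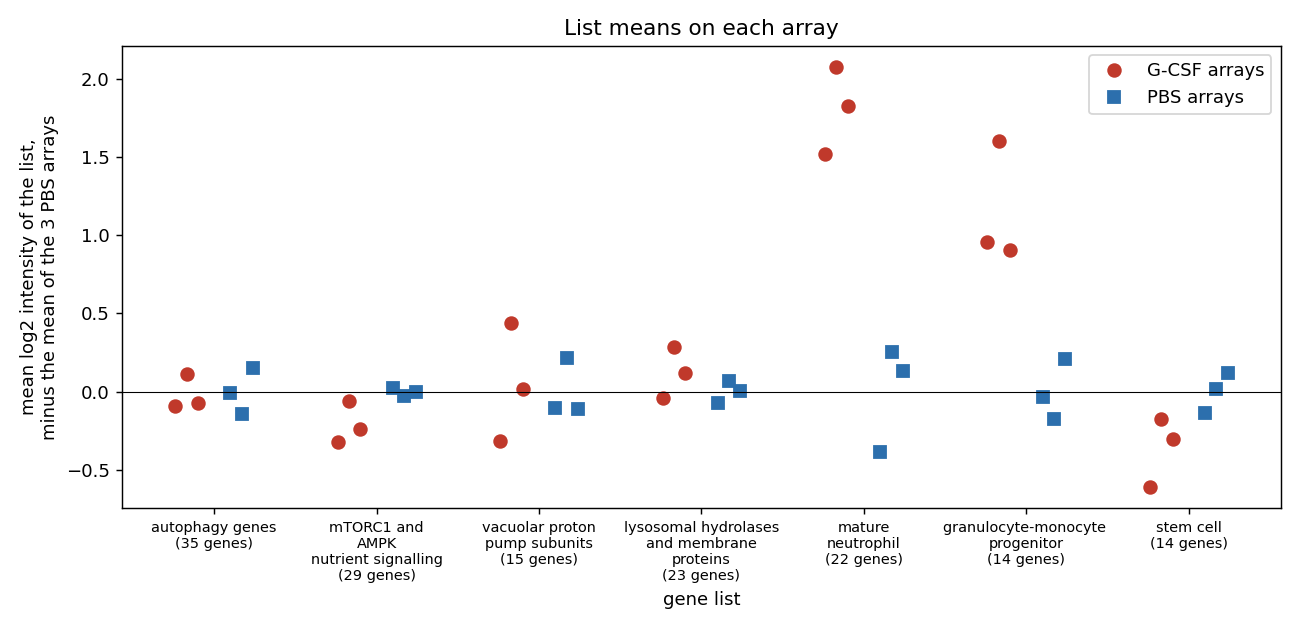
Mean log2 intensity of 7 gene lists on each array, minus the mean of the 3 PBS arrays of that list, with G-CSF arrays as red circles and PBS arrays as blue squares. The 35 autophagy genes overlap between groups, the neutrophil and progenitor lists lie higher on every G-CSF array, and the mTORC1 and AMPK list and the stem cell list lie lower on every one.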

How the data were processed

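The deposited values are intensities on a linear scale. The submitters' processing notes name RMA, without its software, version or the arrays it was run on. RNA was amplified with the NuGen Ovation system, per the labels, and RMA scales arrays to each other, so differences are relative. Log2 was taken of the deposited intensities. Of 35554 probesets, 21789 had 1 gene symbol in the platform annotation. The dimmest 25% of these by mean over all 6 arrays (log2 up to 5.152) were left out, and each gene was read from its brightest remaining probeset (14994 genes).

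Groups were compared with limma 3.58.1 (R 4.3.3; lmFit and eBayes, no covariate), two-sided, with Benjamini-Hochberg adjustment over all genes and a threshold of 0.05. The fit was run on simulated data whose added changes were all larger than the difference of any autophagy gene. That run does not show how the fit handles changes of their size. Intervals are limma's at 95%, unadjusted. An exact permutation test (scipy 1.17.1) was used for ratios of paralogues. Array values are given for members at an unadjusted p under 0.05 or without overlap between groups, and for Ulk1, Becn1, Atg5, Atg7, Map1lc3b, Gabarapl1, Sqstm1, Tfeb, Lamp1 and Lamp2 regardless. From each pathway list up to 4 genes with the smallest p are named, and Foxo3, Mtor and Bnip3 regardless. Array values or ranges of Atg13, Uvrag, Atg4c, Atg3, Atg10 and Kit, and the differences of Ly6g, Slamf1 and Itga2b, were added after they were seen. The members and lists were chosen with earlier results of these data known. Alternatives covered the filter, normalization, variance model, array weights, probeset rule, replicate block and leaving out each array.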

Additional observations from a re-analysis of the deposited data

How the results depend on the processing

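Under all 14 alternatives 0 autophagy genes passed an adjusted p under 0.05 in limma, with 1 to 3 members at an unadjusted p under 0.05. That count was 1, with 0 higher, under centring on the median and under trend and robust settings. The cause was not tested. When 1 array was left out, the counts ranged from 1 to 3 in all, from 0 to 1 for higher and from 1 to 3 for lower members. Members without overlap then numbered 6 to 11, with 3 to 6 higher and 2 to 6 lower, since 3 against 2 arrays separate more often (19.4% to 22.4% of all genes, against 10.8% with all arrays). The largest count, 11, came without PBS replicate 2 and the smallest, 6, without PBS replicate 3, and 7 to 8 without any other array. The median difference stayed within -0.07 and 0.02 when 1 array was left out, with its positive value without PBS replicate 3. Atg14 kept its sign and an unadjusted p under 0.05 in limma under all 14 (-1.13 to -0.63), and Lamp2 kept its sign (0.38 to 0.76). With quantile normalization again, Gabarap lost its separation of the groups.

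The replicate number as a block left 2 members at an unadjusted p under 0.05 and 0 past adjustment in limma (smallest adjusted p 0.387). With the block 8.07% of all genes had an unadjusted p under 0.05, against 6.04% without it. The limma unadjusted p of Lamp2 was then 0.0189 and that of Atg14 0.0106. Deviations from group means correlated between same-numbered arrays at 0.289, 0.0186 and 0.193 for numbers 1, 2 and 3. G-CSF replicates 1 and 3 correlated best with the PBS array of the same number, and G-CSF replicate 2 with PBS replicate 3 (0.101). These values did not settle whether the numbers mark pairs, and the main fit was run without a block. The dimmest 50% filter left 27 members. It gave no value for the other 8.

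The sign of the difference was kept in 14 members under all alternatives run and changed under at least 1 in 21. Quantile normalization again gave 0.0197 for Ulk2. Array weights gave 0.00034 for Atg16l2, 0.038 for Atg4d, -0.0102 for Nbr1, -0.0054 for Pik3r4 and 0.0086 for Ulk2. With 1 array left out the differences ran from -0.24 to 0.17 for Ambra1, from -0.27 to 0.17 for Atg4b, from -0.22 to 0.017 for Map1lc3a, from -0.041 to 0.19 for Wipi1 and from -0.15 to 0.17 for Atg16l2. They ran from -0.15 to 0.12 for Atg4d, from -0.36 to 0.077 for Atg7, from -0.13 to 0.16 for Nbr1, from -0.14 to 0.20 for Pik3r4 and from -0.063 to 0.062 for Ulk2. They ran from -0.34 to 0.57 for Uvrag, from -0.39 to 0.12 for Atg5, from -0.34 to 0.048 for Lamp1, from -0.33 to 0.19 for Map1lc3b and from -0.29 to 0.21 for Rb1cc1. They ran from -0.34 to 0.12 for Sqstm1, from -0.13 to 0.072 for Atg16l1, from -0.23 to 0.25 for Atg4a, from -0.44 to 0.13 for Becn1 and from -0.18 to 0.45 for Gabarapl2. They ran from -0.11 to 0.00195 for Tfeb.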
